A study of Homo sapiens with 14 samples.

Results

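The ZNF genes make the largest set of human transcription factors, and the 325 described here are those whose symbol is ZNF followed by a number alone and whose mean reached at least 5 TPM in at least 1 of 4 groups of glioblastoma cell libraries. TPM, transcripts per 1000000, is a share of each library's RNA scaled by gene length. They were 325 of 476 such ZNF genes and of 24489 genes in the expression tables. They were chosen by their mean TPM in these same libraries, so that they are well expressed is no finding. The mean reached 5 TPM in 316 of the 325 in control cells, 288 in radioresistant cells, 231 with the hairpin shNC and 242 with the hairpin shIFI16. It did so in all 4 groups for 220 genes and in exactly 1 group for 36. Closest to the limit, ZNF880 entered at 5.03 TPM and ZNF527 at 5.04 TPM, both in control cells, while ZNF813 at 4.998 TPM and ZNF682 at 4.99 TPM stayed outside.

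All libraries came from U251MG, an established human glioblastoma cell line, labelled as wild type in every group. Control cells were compared with radioresistant cells, derived by 30 daily X-ray fractions of 2 Gy (60 Gy in all), with 3 RNA libraries each. A second set held radioresistant cells that carried either shIFI16, a hairpin RNA that targets IFI16, or the hairpin shNC. It had 3 libraries each, and both hairpin groups carry the radiation history too. One ATAC-seq library, which maps open chromatin, was made from control cells and 1 from radioresistant cells. The labels name 1 radioresistant line and 1 hairpin against IFI16, so an effect of IFI16 loss cannot be told apart from another effect of that hairpin. Whether replicates were grown as separate cultures is not said. P-values here therefore measure only how far these libraries differ from each other, and part of that may be technical.

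Most ZNF proteins carry tandem C2H2 zinc fingers, each a small loop folded around a zinc ion, and adjacent fingers read adjacent bases of DNA. Many also carry a KRAB domain, which recruits the corepressor TRIM28 and with it SETDB1 and HP1 proteins, so that chromatin at the bound site becomes silent; transposable elements are the best known targets. KRAB zinc finger genes multiplied by local duplication and stand in large clusters on chromosome 19, whereas a minority of ZNF proteins act in development, in RNA metabolism or in chromatin complexes. Of the 325 genes, 163 lay on chromosome 19, 23 on chromosome 16, 22 on chromosome 7 and 16 on chromosome 1; 1 gene, ZNF788, could not be placed by its symbol.

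The libraries differed in ways that touch these genes. The 325 genes together took 5497 to 5955 TPM in control, 5095 to 5507 in radioresistant, 3980 to 4171 in shNC and 4252 to 4692 in shIFI16 libraries, about 0.398 to 0.595% of a library. Control replicate 3 stood apart: over the 325 genes Pearson's r of log2(TPM + 1) was 0.916 and 0.953 with control replicates 1 and 2, against 0.981 between those. IFI16, the target of the hairpin, stood at 125, 140 and 127 TPM in shNC and at 7.68, 7.90 and 6.71 TPM in shIFI16 libraries, which goes with the labels. It stood at 70.3, 71.1 and 49.6 TPM in control and at 250.8, 309 and 243 TPM in radioresistant libraries. Of the astrocyte and glioma markers, VIM, NES and SOX2 were high in every library, and the summed level of the 5 markers was 13356 to 13648 TPM in control and 5798 to 6248 TPM in radioresistant cells, then 6712 to 7338 TPM with shNC and 4852 to 5670 TPM with shIFI16. Most of that sum was VIM. All 5 markers were lowered in radioresistant cells, whereas after knockdown VIM (-0.49) and NES (-0.38) fell and GFAP (3.56) and SOX2 (0.17) rose. The summed level of the endothelial markers was 12.4 to 14.2 TPM in control, 4.66 to 5.07 in radioresistant, 6.02 to 6.64 in shNC and 11.7 to 14.2 in shIFI16 libraries. Of these 4 markers 2 were tested in each comparison and 1 was called, CDH5, which fell (-2.37) and rose after knockdown (1.28). Only 1 of the 4 reached 1 TPM in any radioresistant library, so these levels are near the floor. That of the immune markers was 15.3 to 20.6 TPM in control, 19.4 to 23.5 in radioresistant, 37.4 to 40.3 in shNC and 14.05 to 17.7 in shIFI16 libraries. It was nearly all CD68, which fell after knockdown (-1.25). The neuronal sum was 2.04 to 4.66 TPM, the epithelial 1.69 to 8.01 TPM and the oligodendrocyte at most 1.02 TPM over the 12 libraries. What part these markers have in the results below was not tested.

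The promoters of these genes share letters that the choice did not use. RefSeq (GRCh38.p14) holds a promoter window, 250 bases before to 50 after a start, for 284 of the 325. The core of the ETS factor motif, CCGGAAG on either strand, occurred in 128 of the 284 windows (45.1%), against 20.9% of windows of all genes with at least 5 TPM and 10.7% of all 27305 windows. The share was 48.6% on chromosome 19 and 41.3% elsewhere, so it was not limited to the chromosome 19 clusters. Windows of duplicated genes can be near copies, as the stretches of ZNF254 and ZNF430 below show, so they are not independent counts. What part of the share comes from copies was not tested. These matches sat close to the start: the median of 147 lay 22 bases before it, and 83.7% lay within 100 bases before to 50 after, against 74.0% of the matches of all genes with at least 5 TPM. CCAAT was found in 48.2% of the ZNF windows against 37.7% of those of all well-expressed genes, whereas the GC box GGGCGG was found in 65.5% against 71.1%. The ZNF143 core ACTACAA (5.99% against 4.11%), the NRF1 palindrome (2.11% against 2.42%) and the interferon response element (1.06% against 2.95%) were rare. Both strands were searched, and no searched motif contains another. The windows held a median of 22 CpG sites, below the 27 of all well-expressed genes and above the 14 of all promoters. These are counts of letters, with no evidence of binding.

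**Figure D1:**
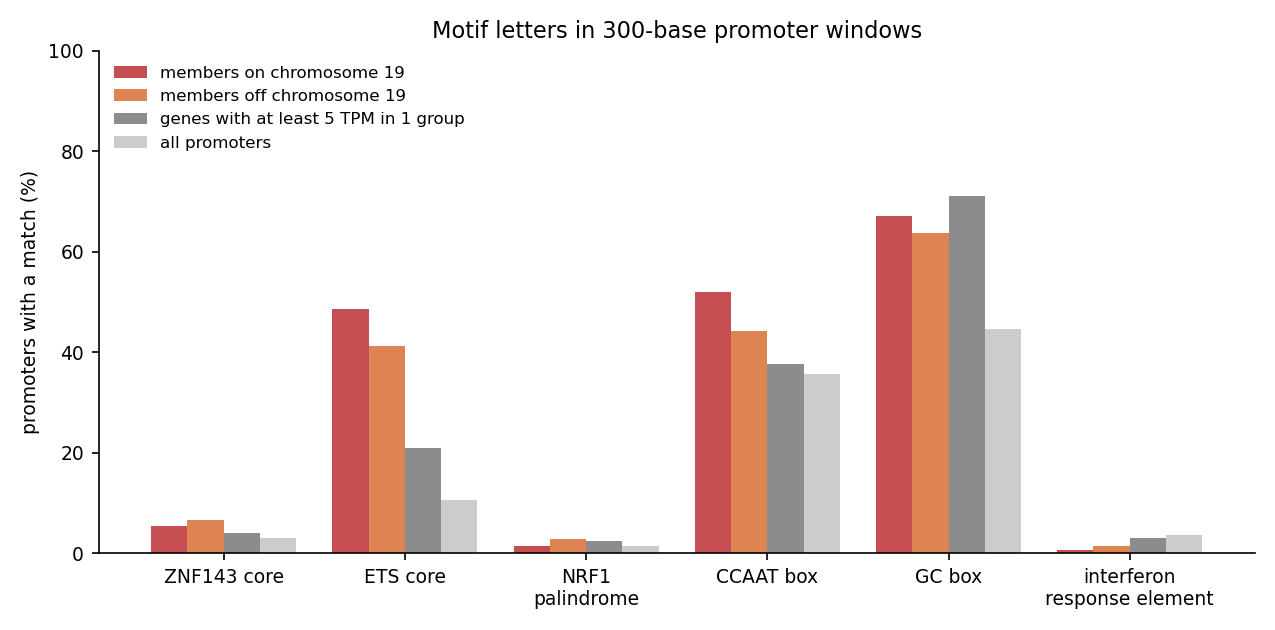
Share of 300-base promoter windows (vertical axis, percent) that hold each motif on either strand, for ZNF genes on chromosome 19, ZNF genes elsewhere, all genes with at least 5 TPM in 1 group, and all promoters. The ETS core bars of the ZNF genes (48.6% and 41.3%) stand above those of well-expressed genes (20.9%) and of all promoters (10.7%). The GC box bars of the ZNF genes (67.1% and 63.8%) stand above that of all promoters (44.6%) but below that of well-expressed genes (71.1%).

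To show this, the 250 bases before the start of 6 genes follow, from RefSeq GRCh38.p14, 5′ to 3′ on the gene's strand, with the ETS core in capitals. ZNF423 (its second listed start, farther upstream in the gene) and ZNF711 are shown because they fell and rose most among those with a window, and neither holds the core in these bases. ZNF436 moved in both comparisons. ZNF254, ZNF430 and ZNF587 are chromosome 19 genes with the core and with an open chromatin summit within 1000 bases of a listed start in both ATAC-seq libraries.
ZNF423 (chr16:49857920-49858169, minus strand): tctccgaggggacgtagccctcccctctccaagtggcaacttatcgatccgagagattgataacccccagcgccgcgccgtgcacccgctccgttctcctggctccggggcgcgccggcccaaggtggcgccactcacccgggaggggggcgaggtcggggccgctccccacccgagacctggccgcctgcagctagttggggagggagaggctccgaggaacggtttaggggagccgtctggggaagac
ZNF711 (chrX:85243741-85243990, plus strand): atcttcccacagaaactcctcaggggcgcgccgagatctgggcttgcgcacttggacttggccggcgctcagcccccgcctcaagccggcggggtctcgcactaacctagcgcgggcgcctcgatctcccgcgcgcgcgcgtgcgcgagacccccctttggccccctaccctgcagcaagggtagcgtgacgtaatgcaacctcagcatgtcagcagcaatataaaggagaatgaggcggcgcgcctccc
ZNF436 (chr1:23369837-23370086, minus strand): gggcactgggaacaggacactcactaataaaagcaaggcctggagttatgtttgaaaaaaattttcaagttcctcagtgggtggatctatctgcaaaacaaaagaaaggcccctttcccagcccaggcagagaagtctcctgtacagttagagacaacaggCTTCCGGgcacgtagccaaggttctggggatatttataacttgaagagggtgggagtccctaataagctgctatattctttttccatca
ZNF254 (chr19:24086937-24087186, plus strand): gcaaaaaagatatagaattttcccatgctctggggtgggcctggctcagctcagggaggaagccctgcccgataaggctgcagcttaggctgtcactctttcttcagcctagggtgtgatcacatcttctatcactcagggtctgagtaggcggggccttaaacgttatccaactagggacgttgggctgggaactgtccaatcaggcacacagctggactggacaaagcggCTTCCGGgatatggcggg
ZNF430 (chr19:21020407-21020656, plus strand): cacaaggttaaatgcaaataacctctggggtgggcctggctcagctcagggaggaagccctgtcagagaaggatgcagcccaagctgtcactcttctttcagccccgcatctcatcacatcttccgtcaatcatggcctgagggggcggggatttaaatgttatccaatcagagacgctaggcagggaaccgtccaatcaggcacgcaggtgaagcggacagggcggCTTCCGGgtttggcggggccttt
ZNF587 (chr19:57849609-57849858, plus strand): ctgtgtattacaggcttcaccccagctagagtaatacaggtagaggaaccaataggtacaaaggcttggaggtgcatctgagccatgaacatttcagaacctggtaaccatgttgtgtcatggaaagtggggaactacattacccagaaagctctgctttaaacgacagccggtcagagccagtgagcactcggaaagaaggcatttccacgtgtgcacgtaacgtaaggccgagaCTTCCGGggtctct
In ZNF254, ZNF430 and ZNF587 the core ends 12, 17 and 8 bases before the start, with 1, 2 and 1 CCAAT boxes in the same stretch, and in ZNF436 it ends 83 bases before the start. The stretch of ZNF436 holds 2 CpG sites, whereas that of ZNF423 holds 24 and that of ZNF711 holds 27.

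Radioresistant cells were compared with control cells to ask how these genes stood after the radiation course. Changes are differences of mean log2(TPM + 1), which understates changes of low genes. A gene was called where limma gave a Benjamini-Hochberg adjusted p under 0.05 over all genes tested. Of the 325 genes, 62 were lowered (19.1%) and 29 raised (8.92%), against 27.0% lowered and 16.9% raised of all 13127 genes tested, of which 43.9% were called in all. Their median change was -0.12, that of all genes -0.11. A gene at 5 TPM in only 1 of these groups was partly chosen for being high there, and of the 35 such genes of control cells 15 were lowered, while of the 7 of radioresistant cells 5 were raised. Among the 281 at 5 TPM in both groups, 24 were raised and 46 lowered. With the libraries rescaled by median ratios, 45 of the 325 were raised and 52 lowered, and with quantile normalization 42 and 50. The median of all genes moved by 0.12 and 0.09 under these scalings. The share of raised among called ZNF genes went from 31.9% to 46.4% and 45.7%. Among all called genes it likewise went from 38.5% to 50.6% and 47.1%. Single libraries moved the counts. The lowered genes numbered 110 without control replicate 3 and 39 without control replicate 2 or without radioresistant replicate 3. Those 110 are 33.95%, beside 34.3% of all genes, so the lower share of lowered ZNF genes was absent there. The 39 are 12.04%, beside 17.4% and 19.2% of all genes. With each other library left out the ZNF share was also the lower. The raised genes numbered 18 and 14 without control replicates 1 and 2, and 16, 17 and 12 without radioresistant replicates 1, 2 and 3. Without control replicate 3 the raised share was 12.7%, still below the 21.4% of all genes. In 66 of the 91 called genes, control replicate 3 was the control library nearest to the radioresistant mean. Under every one of the alternatives that gave a value, 36 of the 62 lowered and 11 of the 29 raised genes were still called. They include ZNF423 and ZNF711, whose direction was set by the choice of genes to test, as given below. They also include ZNF618 and ZNF32, whose direction that choice set in part. For these genes this is no check.

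**Figure D2:**
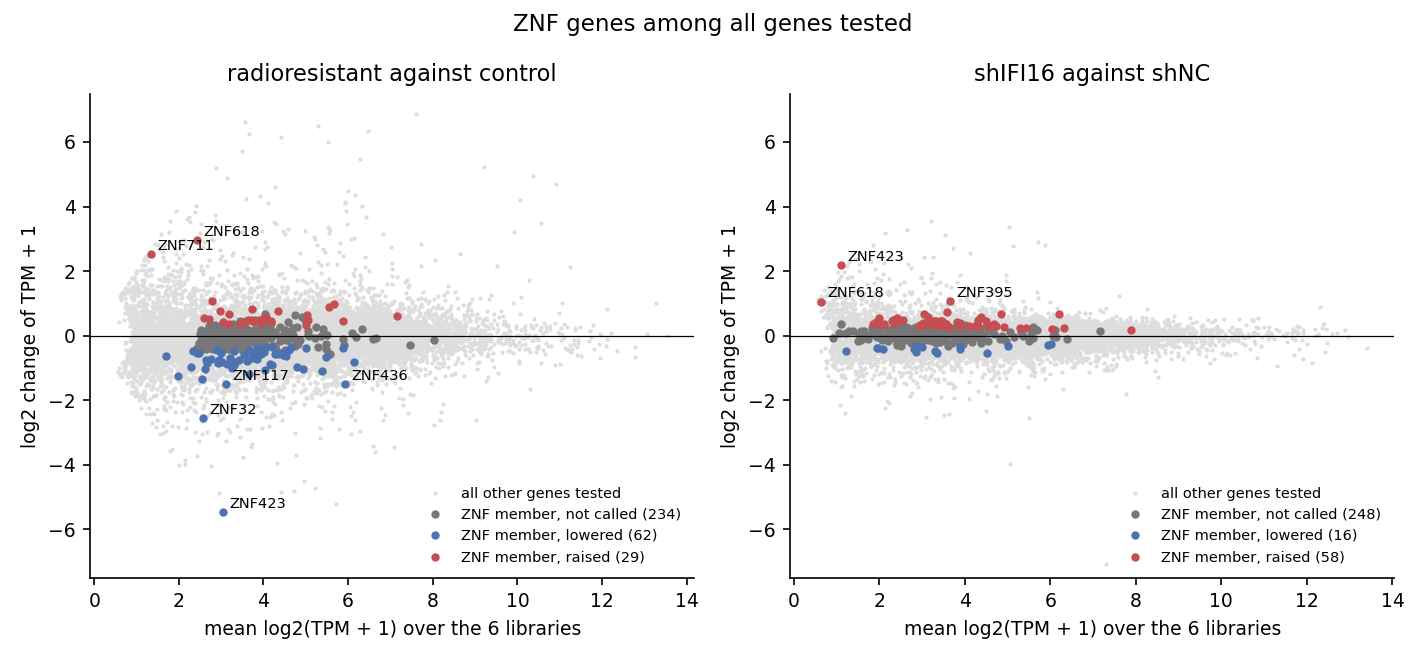
Mean level over 6 libraries (horizontal axis, log2(TPM + 1)) against the log2 change of TPM + 1 (vertical axis) for radioresistant against control (left) and shIFI16 against shNC (right); grey dots are all other genes tested, larger points are the ZNF genes. Most ZNF genes lie within 1 log2 unit of 0 at low to middle levels; 62 were lowered and 29 raised on the left, 16 lowered and 58 raised on the right.

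Of the 10 highest genes of the set, ZNF593 rose and ZNF436 and ZNF664 fell in radioresistant cells. ZNF207, a spindle and splicing factor, had the highest mean over the 12 libraries. It stood at 317, 302 and 212 TPM in control, at 228, 276 and 244 TPM in radioresistant, at 217, 235 and 216 TPM in shNC and at 266, 255 and 239 TPM in shIFI16 libraries. Control replicate 3 was the lowest of the 12 and lay below the radioresistant libraries, so those groups overlap. After knockdown ZNF207 came to 0.19 (limma adjusted p = 0.0322), a call lost without shNC replicate 1 (0.0911) or 3 (0.115) or shIFI16 replicate 1 (0.0936) or 2 (0.111). For ZNF428 it was the highest control, at 127 TPM beside 48.4 and 65.1 TPM, and likewise for ZNF358, at 148 TPM beside 67.8 and 94.3 TPM; neither passed the test in either comparison. ZNF580, ZNF655 and ZNF511 also passed neither test. ZNF580 stood at 186, 206 and 191 TPM in control and at 173, 159 and 144 TPM in radioresistant libraries, without overlap but with adjusted p = 0.0532. ZNF664 fell in radioresistant cells (-0.82, limma adjusted p = 0.000702), from 104, 99.5 and 76.8 TPM to 48.6, 54.9 and 52.7 TPM.

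The largest fall was that of ZNF423, a factor that binds SMAD and EBF proteins and acts in brain development. It stood at 53.7, 58.3 and 49.5 TPM in control and at 0.248, 0.300 and 0.201 TPM in radioresistant libraries, a change of -5.45. It reached the 1 TPM needed for testing, and the 5 TPM of the choice, only in control cells of this pair, which set its direction, so no p is given. In bulk RNA, fewer cells with a transcript and less of it in each cell cannot be told apart. ZNF32, on chromosome 10, stood at 15, 13.5 and 11.8 TPM in control and at 1.91, 1.88 and 0.754 TPM in radioresistant cells (-2.55). Its radioresistant libraries did not all reach the 1 TPM needed for testing, so it was tested through control cells and no p is given. ZNF436, a KRAB zinc finger gene and among the 10 highest of the set, stood at 106, 104 and 93.6 TPM and at 44.5, 39.7 and 24.4 TPM (-1.5, SE 0.192, adjusted p = 0.000146). ZNF32 and, among the genes named next, ZNF117, ZNF345, ZNF606 and ZNF397 reached 5 TPM in control alone of the pair, as ZNF618 and ZNF850 did in radioresistant cells alone, so their direction was in part chosen. In each of these 3 falls the groups were far apart, and radioresistant replicate 3 was the lowest library.

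The 9 next largest falls were each past the threshold under every alternative run, without overlap between groups. They were ZNF117 (-1.49), ZNF345 (-1.35), ZNF606 (-1.25), ZNF362 (-1.20), ZNF770 (-1.11), ZNF697 (-1.08), ZNF503 (-1.04), ZNF397 (-1.03) and ZNF821 (-1.0). ZNF770 stood at 69.3, 64.6 and 49.7 TPM in control and at 24.9, 30.0 and 28.1 TPM in radioresistant cells. ZNF697 was even within control cells, at 23.1, 22.8 and 22.3 TPM, and lower at 8.44, 9.84 and 12.9 TPM in radioresistant cells. ZNF503, a repressor of the developing forebrain, varied most among the controls, at 30.2, 41.0 and 63.6 TPM, against 21.7, 19.8 and 19.6 TPM. Its lowest control library was still above every radioresistant one.

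ZNF618, reported as a partner of the hydroxymethylcytosine reader UHRF2, and ZNF711, an X-linked factor that binds CpG island promoters with the histone demethylase PHF8, rose most. ZNF618 (chromosome 9) stood at 1.04, 1.17 and 0.653 TPM in control and at 16.2, 16.1 and 10.8 TPM in radioresistant cells (2.96). Its control libraries did not all reach 1 TPM, so it was tested through radioresistant cells and no p is given. ZNF711 was near 0 in control, at 0.0204, 0.145 and 0 TPM, and stood at 5.33, 6.29 and 3.98 TPM in radioresistant cells (2.54). Because ZNF711 reached the 1 TPM needed for testing only in radioresistant cells, its direction was set by that filter, and no p is given. ZNF850, on chromosome 19, went from 5.03, 3.56 and 2.85 TPM to 7.82, 9.69 and 9.53 TPM (1.08, SE 0.183, adjusted p = 0.000913). ZNF707 (0.82), ZNF574 (0.78), ZNF460 (0.76) and ZNF551 (0.66) also rose under every alternative run. ZNF787 came to 0.98 with adjusted p = 0.0146, and to 0.0605 without control replicate 2 and 0.0608 without radioresistant replicate 3. ZNF121 (0.57, adjusted p = 0.0151) lost its call without radioresistant replicate 3 (adjusted p = 0.0675).

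**Figure D3:**
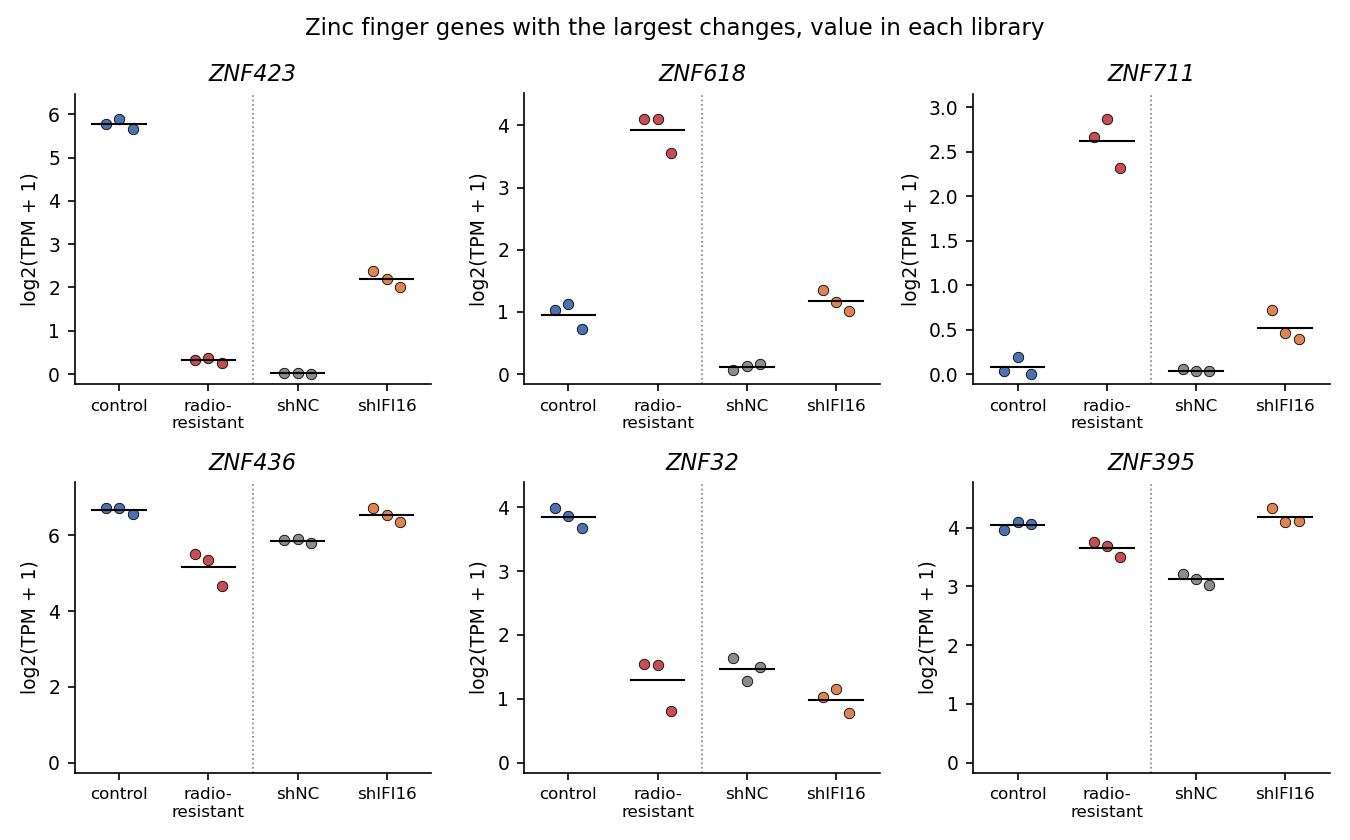
Value of 6 ZNF genes in each of the 12 libraries (points, vertical axis log2(TPM + 1)) with the mean of the log2 values of each group of 3 (line). The dotted line parts the 2 tables, which were not tested against each other. ZNF423 and ZNF436 are lower in radioresistant than in control cells and higher with shIFI16 than with shNC; ZNF618 is higher in both.

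IFI16 knockdown was compared with shNC to ask what loss of IFI16 changes in radioresistant cells. Of 322 genes tested, 58 rose (18%) and 16 fell (4.97%), against 16.6% raised and 16.3% lowered of all 12567 genes tested, of which 32.9% were called in all. The share of raised genes was thus near the background, and that of lowered genes was below it. Their median change was 0.10 and that of all genes 0.02. Among the 225 at 5 TPM in both groups, 45 were raised and 12 lowered. ZNF439, ZNF460 and ZNF711 were too low to be tested; ZNF711 stood at 0.038, 0.0231 and 0.0211 TPM with shNC and at 0.649, 0.373 and 0.310 TPM with shIFI16. The raised genes numbered 32 and 30 without shNC replicates 2 and 3, and 34 and 37 without shIFI16 replicates 1 and 2. These are 9.32 to 11.6%, beside 10.6 to 12.9% of all genes. The lowered genes numbered 8 without shNC replicate 1 or without shIFI16 replicate 2, and 9 without shIFI16 replicate 3. Their shares are 2.49 to 2.82%, beside 12.7 to 14.3% of all genes. Without the filter on low values 34 were raised and 9 lowered. Raised genes made up 78.4% of the calls, and 59.6% without shIFI16 replicate 1. Over all genes these shares were 50.4% and 40.6%. Under every alternative that gave a value, 20 of the 58 raised and 4 of the 16 lowered genes were still called. ZNF423 and ZNF618 are among the raised, though the filter set their direction.

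ZNF423 rose most after knockdown, from 0.0172, 0.0209 and 0 TPM with shNC to 4.17, 3.62 and 3.02 TPM with shIFI16 (2.18). It was tested only through the shIFI16 libraries, which set its direction, so no p is given. ZNF395, a factor induced by low oxygen, stood at 8.25, 7.77 and 7.11 TPM with shNC and at 19.3, 16.1 and 16.4 TPM with shIFI16 (1.07, SE 0.107, limma adjusted p = 1.66e-06). Every shIFI16 library was thus well above every shNC library. ZNF618, also tested only through shIFI16, went from 0.0420, 0.0918 and 0.121 TPM to 1.55, 1.23 and 1.01 TPM (1.06). ZNF436 stood at 57.8, 58.5 and 55.0 TPM and at 104, 91.4 and 81.4 TPM (0.68, SE 0.084, adjusted p = 1.54e-05). ZNF608 (0.72), ZNF567 (0.68), ZNF367 (0.66), ZNF251 (0.58), ZNF219 (0.57) and ZNF417 (0.54) followed, each still called under every alternative run. ZNF608 stood at 8.92, 9.22 and 7.24 TPM with shNC and at 16.3, 14.4 and 13.0 TPM with shIFI16, with a wide gap between the groups.

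The falls after knockdown were smaller. Those of ZNF414, ZNF653, ZNF688 and ZNF365 were called under every alternative run. ZNF414 stood at 28.3, 23.6 and 28.3 TPM with shNC and at 16.7, 19.7 and 18 TPM with shIFI16 (-0.53, SE 0.1, adjusted p = 0.000742). ZNF653 stood at 11.7, 10.9 and 11.4 TPM and at 8.09, 7.28 and 7.34 TPM (-0.52, SE 0.102, adjusted p = 0.00101). Neither passed the test between control and radioresistant cells, with changes of -0.02 and 0.02. ZNF688 changed by -0.48 and ZNF365, a centrosomal protein gene, by -0.42.

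The 2 comparisons share no library, and 322 genes were tested in both. Of these, 17 were lowered in radioresistant cells and raised by the knockdown, 3 were raised and then lowered, 4 were raised in both and 5 lowered in both. Over all 12359 genes tested in both, the counts were 595, 546, 385 and 491. In percent of the genes tested, the first class took 5.28% of ZNF genes and 4.81% of all genes, and the second 0.932% and 4.42%. Under every alternative run, ZNF436 and ZNF7 stayed in the first class and ZNF365 in the fourth, and 0 genes stayed in the second. ZNF423 in the first class and ZNF618 in the third kept their calls under the alternatives that gave a value. The filter had set the direction of ZNF423 in both comparisons and of ZNF618 after knockdown, and in part that of ZNF618 in radioresistant cells. So for them this is no check. With a library of its higher group left out, ZNF423 went untested in both comparisons, ZNF618 in the second, and ZNF711 in the first. ZNF7 stood at 24.4, 23.1 and 20.1 TPM in control and at 15, 14.9 and 14.7 TPM in radioresistant cells (-0.56, SE 0.125, adjusted p = 0.00429). It then stood at 21.1, 22.7 and 20.9 TPM with shNC and at 30.2, 25.9 and 28.1 TPM with shIFI16 (0.37, SE 0.091, adjusted p = 0.00572). ZNF345 (-1.35 and 0.53) and ZNF32 (-2.55 and -0.49) were called in both, but after knockdown ZNF345 had adjusted p = 0.0915 without shNC replicate 1. ZNF32 had 0.0943 and 0.062 without shNC replicates 1 and 3 and 0.0976 without shIFI16 replicate 3. ZNF395 was called lower in radioresistant cells (-0.38, adjusted p = 0.0331). That call was lost without control replicate 2 (0.136) and without radioresistant replicate 1 (0.0531), 2 (0.0701) or 3 (0.119).

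**Figure D4:**
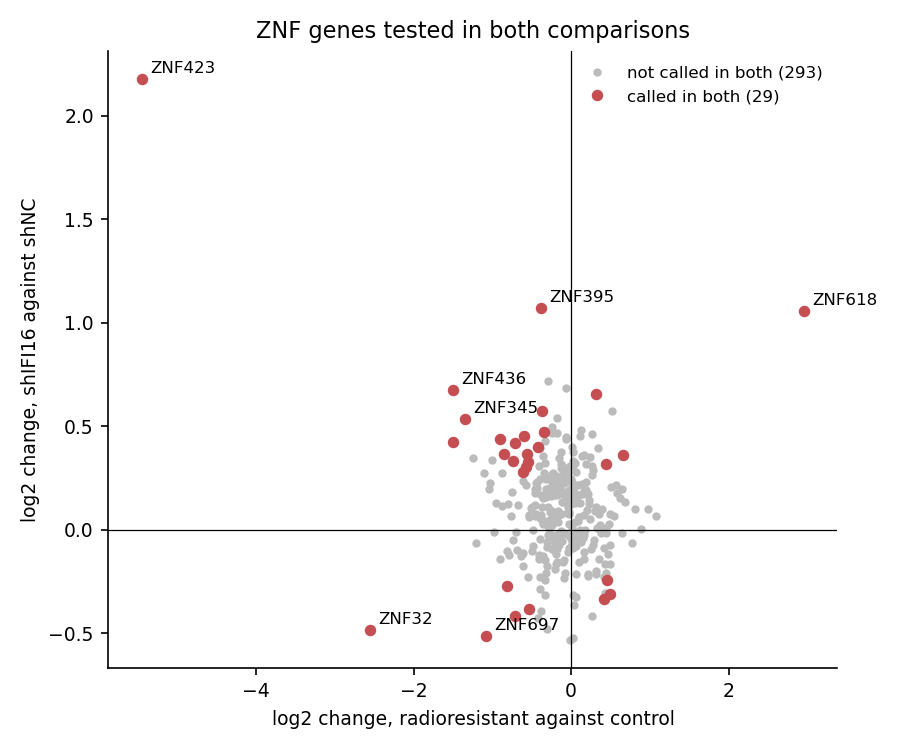
Log2 change of TPM + 1 of 322 ZNF genes in radioresistant against control cells (horizontal axis) and in shIFI16 against shNC (vertical axis); red points are the 29 genes called in both. ZNF423 lies far to the upper left (-5.45 and 2.18), ZNF618 to the right (2.96 and 1.06) and ZNF32 at the lower left (-2.55 and -0.49).

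Levels in the shNC group were not tested against the radioresistant group. The 2 sets of libraries differ in the hairpin and perhaps in handling, which cannot be told apart. Set side by side, ZNF618 had a mean of 14.4 TPM in radioresistant cells and 0.0851 TPM with shNC, and ZNF711 5.20 and 0.0274 TPM, although both groups are labelled radioresistant. Of the 325 genes, 202 (62.2%) had every shNC library below every radioresistant library and 32 (9.85%) had every one above, beside 45.2% and 23.5% of the 11369 genes with at least 5 TPM in a group. The astrocyte filament gene GFAP moved beside ZNF423: it had a mean of 4011 TPM in control, 80.6 in radioresistant, 1.73 with shNC and 31.1 with shIFI16. Within each table, some genes followed the largest movers closely over the 6 libraries, as a description. ZNF32 (Pearson's r = 0.983), ZNF606 (0.974) and ZNF692 (0.968) were most like ZNF423 across control and radioresistant libraries. ZNF711 (0.998), ZNF706 (0.957) and ZNF622 (0.945) were most like ZNF618 there. With the hairpins, ZNF618 (0.994), ZNF395 (0.991) and ZNF346 (0.991) were most like ZNF423, and ZNF346 (0.994), ZNF423 (0.991) and ZNF776 (0.987) most like ZNF395. Groups that stand apart give high values of r by themselves.

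The counts by role that follow stand beside the background shares of 16.9% raised and 27.0% lowered in radioresistant cells, and of 16.6% and 16.3% after knockdown. Genes of RNA metabolism and ribosome work included 3 rises that held under every alternative run. Of 11 such genes, 4 rose and 2 fell, and after knockdown 3 rose and 1 fell; their medians were 0.27 and 0.12. ZNF598, the ubiquitin ligase that marks collided ribosomes, stood at 25.5, 32.0 and 44.5 TPM in control and at 59.2, 58.5 and 69.3 TPM in radioresistant cells (0.89, SE 0.181, adjusted p = 0.0027). ZNF593, a factor of large ribosomal subunit maturation, stood at 99.6, 113 and 132 TPM and at 166, 170 and 190 TPM (0.62, SE 0.125, adjusted p = 0.00257). ZNF622, which also acts on the large subunit, stood at 47.6, 53.2 and 46.6 TPM and at 71.5, 62.9 and 68.7 TPM (0.46, SE 0.113, adjusted p = 0.00788). In all 3, every radioresistant library was above every control library. After knockdown ZNF598 and ZNF593 did not pass the test (0.00 and 0.15). ZNF622 came to -0.24 (adjusted p = 0.0168), a call lost without shNC replicate 2 (0.0826) or shIFI16 replicate 2 (0.0731). ZNF277 fell in radioresistant cells (-0.54), and ZNF346, which binds double-stranded RNA, rose after knockdown (0.46, from 18.4, 17.9 and 18.2 to 26.8, 24.4 and 25 TPM).

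Among 11 genes of chromatin complexes, 3 fell and 0 rose in radioresistant cells, and 4 rose and 0 fell after knockdown, with medians of -0.35 and 0.24. The 3 falls are 27.3%, near the 27.0% of all genes, and the 4 rises 36.4% beside 16.6%. The call of ZNF217 (-0.38, adjusted p = 0.047), the smallest of the 3 falls, was lost under 7 alternatives, among them without control replicate 1 (0.124) or 2 (0.157) or radioresistant replicate 1 (0.1) or 3 (0.193), and its groups overlap. By limma's unadjusted p under 0.05, 6 were lower and 1 higher in the first comparison and 6 higher and 0 lower in the second. The background shares above are for adjusted p and do not apply to these counts. The share of all genes at the unadjusted p was not counted, so nothing about chromatin complex genes is read from them. By the same unadjusted p, 83 of the 325 ZNF genes were lower and 39 higher in the first comparison. In the second, 81 of 322 were higher and 24 lower. ZNF827, which brings the NuRD remodelling complex to telomeres, fell from 25.1, 27.3 and 18.4 TPM to 11.8, 13.6 and 11.4 TPM (-0.88, SE 0.160, adjusted p = 0.00141). ZNF532, of the complex with ZMYND8, fell from 16.7, 16.5 and 12.6 TPM to 8.72, 9.99 and 7.89 TPM (-0.72, SE 0.151, adjusted p = 0.00333). After knockdown ZNF532 came to 0.42 (adjusted p = 0.0114), and to 0.0525 without shNC replicate 3. The rises of ZNF644 (0.24, adjusted p = 0.0376) and ZNF281 (0.29, adjusted p = 0.0328) also lost their calls there (0.165 and 0.120) and without some other libraries. That of ZNF219 (0.57, adjusted p = 0.00261) held under every alternative run. Of 9 genes of neural development, 7 belonged to the set. In radioresistant cells ZNF423, ZNF503, ZNF365 and ZNF292 were lowered and ZNF711 was raised. The direction of ZNF423 and ZNF711 was set by the filter on low values. ZNF292 (-0.60, adjusted p = 0.0252) overlapped between groups and lost its call without control replicate 1 or 2 (0.0659 and 0.0974) or radioresistant replicate 1 or 3 (0.0705 and 0.113). After knockdown ZNF292 rose (0.45, adjusted p = 0.00485), from 8.64, 8.35 and 7.46 TPM to 12.9, 11.1 and 10.6 TPM.

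The KRAB genes best known for silencing repeats or guarding imprints held few calls. Of 9 such genes 0 were called by limma in radioresistant cells, and 1 had an unadjusted p under 0.05. ZNF93, a repressor of L1 elements, stood at 10.4, 8 and 6.76 TPM in control and at 10.2, 13.6 and 11.3 TPM in radioresistant cells (0.44, adjusted p = 0.0602), and these overlap. ZNF91, which silences SVA elements, stood at 17.3, 17.8 and 11.8 TPM in control and at 11.2, 14.5 and 10.7 TPM in radioresistant cells. It was the 1 gene of the list called after knockdown (0.32, adjusted p = 0.0388). That call was lost without shNC replicate 2 (0.13) or 3 (0.0943) or shIFI16 replicate 1 (0.134). ZNF445, which protects imprints, changed by -0.12 and 0.32 and did not pass either test. Of 9 promoter-binding activators, 2 fell in radioresistant cells and 2 rose after knockdown; ZNF143 itself passed neither test, with changes of -0.02 and 0.15. Of 7 genes tied to DNA damage or stress, 2 rose and 1 fell in radioresistant cells and 2 rose after knockdown, ZNF395 by the most.

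TRIM28, the corepressor that KRAB domains recruit, stood at 366, 388 and 460 TPM in control and at 548, 541 and 577 TPM in radioresistant cells (0.46, SE 0.113, adjusted p = 0.00731). It stood at 259, 229 and 236 TPM with shNC and at 311, 313 and 244 TPM with shIFI16, where the groups overlap and the change did not pass (0.25, adjusted p = 0.0522). Of the 23 genes of this silencing machinery, 3 rose and 5 fell in radioresistant cells, and 7 rose and 0 fell after knockdown (0 lower also by limma's unadjusted p under 0.05). These are 13.0% and 21.7% beside 16.9% and 27.0% of all genes, and 30.4% beside 16.6%. With 1 library left out, MPHOSPH8, SUV39H1, CBX5, FAM208A or SMARCAD1 lost its call in radioresistant cells, and ATRX, EHMT1, HDAC1 or SUV39H2 its call after knockdown. The remodellers CHD3 (-1.08, adjusted p = 6.39e-05) and ATRX (-0.78, adjusted p = 0.00386) fell in radioresistant cells. After knockdown the HP1 gene CBX1 (0.46, adjusted p = 2.31e-05) and the deacetylase gene HDAC2 (0.31, adjusted p = 0.0045) rose.

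By place, 10 of the 163 genes on chromosome 19 were raised and 21 lowered in radioresistant cells, against 18 and 41 of the 161 elsewhere. These are 6.13% and 12.9%, and 11.2% and 25.5%, beside 16.9% and 27.0% of all genes. After knockdown 20 of 161 were raised and 7 lowered on chromosome 19, and 38 and 9 of 160 elsewhere, which are 12.4% and 4.35%, and 23.8% and 5.63%, beside 16.6% and 16.3%. The difference between the places was not tested. The cluster at the end of the long arm (chromosome 19, 57191500 to 58489533) held 33 of the genes, of which 5 were raised and 4 lowered in radioresistant cells, and 8 of 32 were raised after knockdown. The cluster at 51571283 to 53580269 also held 33, of which 6 were lowered in radioresistant cells, and after knockdown 2 were raised and 2 lowered. The cluster at 36182060 to 37779586 held 16, among them both ZNF345, which fell by 1.35, and ZNF850, which rose by 1.08. Neighbours thus did not all move alike. On chromosome 10, singled out after its values were seen, 6 of 9 genes were lowered in radioresistant cells (ZNF32, ZNF503, ZNF25, ZNF248, ZNF365 and ZNF22) and the median of the 9 was -0.71.

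Related families can be set beside these counts and beside the shares of all genes, 16.9% raised and 27.0% lowered in radioresistant cells and 16.6% and 16.3% after knockdown. Of 36 tested genes named ZNF with a letter after the number, 1 was raised and 12 lowered in radioresistant cells, and 11 of 31 were raised and 2 lowered after knockdown. Of 38 ZBTB genes, whose proteins join zinc fingers to a BTB domain, 1 was raised and 8 lowered, then 5 raised and 3 lowered. Of 14 ZSCAN genes, 1 was raised and 2 lowered, then 1 and 1. Of the 88 ZNF genes under 5 TPM that could be tested, 6 were raised and 19 lowered, and after knockdown 4 and 1 of 67.

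In the ATAC-seq data, with 1 library per condition and so no test, the deposited control list holds 2454 summits and the radioresistant list 12877. Distances are to the nearest of a gene's listed starts, which need not be the first one, whose bases are printed above. Summits can therefore not be placed against the printed cores. Of the 284 genes with a listed start, 17 (5.99%) had a summit within 1000 bases in control cells and 107 (37.7%) in radioresistant cells. All genes with at least 5 TPM gave 7.37% and 39.9%, so the ZNF genes were close to them in both lists, whose lengths differ. A summit lay near the start in both lists for 14 genes, in the radioresistant list alone for 93, in the control list alone for 3 and in neither for 174. The highest score, the authors' -log10 q-value, was that of ZNF687, a partner of ZMYND8, at 6.24 in control and 18.7 in radioresistant cells. Its RNA did not pass the test (-0.14). ZNF254 had a summit 176 bases after a listed start in control and 22 after in radioresistant cells. ZNF430 had summits at 327 and 257 after, and ZNF587 at 69 after and 65 before. The RNA of these 3 did not pass the test in either comparison. ZNF436 had a summit 79 bases before a listed start in radioresistant cells, where its RNA was lower. ZNF423 and ZNF711 had none within 1000 bases of any listed start in either list. The ETS core stood in 13 of 22 windows of raised genes, 21 of 52 of lowered ones and 94 of 210 of those not called in radioresistant cells. After knockdown it stood in 26 of 50, 6 of 14 and 95 of 217.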

How the data were processed

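The members and gene lists were chosen with earlier results of these data known. RNA was measured in 12 libraries and open chromatin in 2, grouped by the labels. Column codes were read as groups: UN and UR by the matching ATAC-seq names, URS as shIFI16 by exclusion, with which its low IFI16 goes; UN and UR have no such check. The deposited tables are named as counts but hold TPM, since each column sums to 1000000 and values are not whole, so limma 3.58.1 (R 4.3.3) replaced the planned count test. Sequencing depth is unknown. Per the submitters' processing notes, hg38, TopHat, featureCounts, Cufflinks 2.2.1 and Trim Galore 0.6.6 are listed, and for ATAC-seq also Bowtie2 2.2.5, SAMtools 1.10 and MACS2 2.1.4. Which tool made the TPM and whether strand was used is not given in the sources used here. Summit scores are the authors' deposited -log10 q-values, by the layout of the file.

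Genes reaching 1 TPM in 3 or more of 6 libraries were fitted within each table on log2(TPM + 1), with moderated variances (trend, robust). The 28 rows with dates for names were dropped. The method was also run on simulated data, with fewer and larger changes than most of those called here, so that run does not bear on these calls. ZNF genes have close copies, so values of near-identical neighbours are uncertain. Named by rule were the 12 largest rises and falls per comparison without overlap, the 10 highest members and those called in both comparisons. The rule also took list members, members nearest 5 TPM, TRIM28 with up to 6 partners, IFI16, and the 3 members most like the top 2 movers. Only some of the genes named by rule are described in the text. Beyond the rule, GFAP, ZNF25, ZNF248, ZNF254 and ZNF430 were chosen after their values were seen. Alternatives were a pseudocount of 0.1, no filter, median-ratio and quantile scaling, a replicate block and leaving out each library. Promoter windows are RefSeq's, at the first listed start, whereas ATAC-seq summits were measured to the nearest listed start.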

Additional observations from a re-analysis of the deposited data

How the results depend on the processing

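Of 54 named and called genes in radioresistant cells, 35 to 52 were still called when 1 library was left out, and of 51 after knockdown 31 to 39; none reversed under any alternative run. In radioresistant cells the raised ZNF genes numbered 12 to 41 and the lowered 39 to 110 over the left-out libraries, all lowered genes 2237 to 4395, and the median change -0.20 to -0.07. Median-ratio scaling gave 45 raised, and it moved the median from -0.12 to -0.0072, quantile normalization to -0.0062. With 5 TPM required in each group, 40 were lowered. After knockdown the raised numbered 30 to 60 and the lowered 8 to 23 over the left-out libraries, and all raised genes 1318 to 2310. Without the low-value filter 34 were raised and 9 lowered, and median-ratio scaling gave 26 lowered. The cause was not tested. With summit scores of at least 10, 0 ZNF genes in control and 3 in radioresistant cells had a summit within 1000 bases.

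Replicate numbers are shared. The deviations of same-numbered libraries had r = -0.38, 0.24 and 0.08 in the first comparison and 0.22, 0.09 and 0.03 in the second. Not every library correlated best with its own number. With 3 libraries per group, these values cannot tell whether the libraries were paired, and the main fit treats them as unpaired. A replicate block gave 24 raised and 69 lowered in radioresistant cells and 83 raised and 27 lowered after knockdown. Over all genes it gave 2110 raised and 3462 lowered in radioresistant cells, against 2220 and 3542 without it. After knockdown it gave 3001 and 2609, against 2088 and 2052. TPM keeps no depth, so no counting interval could be given, and values under 1 TPM are uncertain.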
